A study of Mus musculus with 6 samples.

Results

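The Il10 and Il24 gene cluster is a stretch of mouse chromosome 1 that holds 6 neighbouring genes, Fcmr, Il24, Il20, Il19, Il10 and Mapkapk2, of the 35896 genes to which transcripts were assigned. The cluster was chosen by measured values of the genotype contrast: Il10 and Il24 were picked because their levels differed between genotypes, and the other 4 genes were added because they lie beside them. The genotype differences of the 6 genes are therefore given as a description, with no test. RNA sequencing was done on naive CD4+ T cells of C57BL/6 mice aged 8 to 10 weeks, cultured for 48 h under Th9 polarising conditions, with 3 samples per genotype in a single experiment. WT samples came from Cul5 fl/fl cage-matched littermates without Cre, and Cul5 cKO samples from Cul5 fl/fl CD4-Cre mice, in which the CD4 promoter drives Cre so that floxed Cul5 is deleted in T cells from the thymus onwards, CD8 T cells included. All 6 cultures were activated with anti-CD3 at 2 µg/ml plus anti-CD28 at 1 µg/ml, and held anti-IFN-γ at 10 µg/ml, IL-4 at 20 ng/ml and TGF-β at 2.5 ng/ml. The labels do not say that samples of a genotype came from separate mice, so p-values measure only the spread between these samples.

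Cul5 encodes a cullin, the scaffold of a ubiquitin ligase that pairs with SOCS box proteins and restrains cytokine receptor signalling. IL-10, IL-19, IL-20 and IL-24 belong to the IL-10 cytokine family, whose receptors signal through Janus kinases and mainly STAT3. IL-10 limits inflammation by acting on myeloid cells and T cells, and is made by many helper T cell types, Th2 and Th9 cells included. IL-24 is made by Th2 cells and acts mainly on epithelial cells, while IL-19 and IL-20 come mostly from myeloid and epithelial cells. Fcmr encodes a receptor for IgM, best known on B cells and also present on T cells, and Mapkapk2 encodes MK2, a kinase downstream of p38 that stabilises cytokine mRNAs.

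Along the chromosome (GRCm38, GENCODE annotation) Fcmr lies on the forward strand at chr1:130865669-130880791, followed by Il24 on the reverse strand at chr1:130882074-130887454, so that the 3′ ends of the pair face each other with 1282 bases between them. Il20 (chr1:130906985-130911451) and Il19 (chr1:130932656-130940115) follow on the reverse strand, with gaps of 19530 and 21204 bases. Il10 (chr1:131019845-131024974) is on the forward strand, separated from Il19 by 79729 bases. Mapkapk2 (chr1:131053700-131097826), on the reverse strand, closes the cluster after a further 28725 bases. The span is 232.2 kb and no member overlaps another. Stretches of 31 bases, the length kallisto matches, were not shared with any other gene for 5 of the members, and for Il19 3 of 1167 were shared with Olfr912.

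Promoter sequence, the 250 bases before the RefSeq start site, was held for 4 of the 6 genes, and Il10 and Il24 were not among them. These sequences are shown because they set the start regions of the genes whose levels were low or absent (Il20, Il19) beside those of genes with counts in every sample (Fcmr, Mapkapk2). They are from RefSeq for GRCm38.p6, 5′ to 3′ on the strand of the gene, at chr1:130865527-130865776 (+) for Fcmr, chr1:130911297-130911546 (-) for Il20, chr1:130940116-130940365 (-) for Il19 and chr1:131097844-131098093 (-) for Mapkapk2. Capitals mark matches to the motifs searched on both strands.
Fcmr: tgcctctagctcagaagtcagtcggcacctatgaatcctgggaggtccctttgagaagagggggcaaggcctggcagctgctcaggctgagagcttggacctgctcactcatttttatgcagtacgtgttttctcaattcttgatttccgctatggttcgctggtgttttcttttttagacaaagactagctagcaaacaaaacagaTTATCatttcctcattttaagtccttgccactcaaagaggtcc
Il20: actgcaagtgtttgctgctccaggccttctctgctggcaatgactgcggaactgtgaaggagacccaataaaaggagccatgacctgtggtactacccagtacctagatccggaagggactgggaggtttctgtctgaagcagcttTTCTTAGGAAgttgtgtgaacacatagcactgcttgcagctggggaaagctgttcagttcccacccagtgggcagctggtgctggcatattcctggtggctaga
Il19: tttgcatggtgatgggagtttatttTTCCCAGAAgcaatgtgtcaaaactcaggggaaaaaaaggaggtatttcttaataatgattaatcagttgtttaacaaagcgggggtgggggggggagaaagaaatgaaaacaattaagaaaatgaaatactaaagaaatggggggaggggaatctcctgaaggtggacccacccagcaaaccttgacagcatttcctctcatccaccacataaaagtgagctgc
Mapkapk2: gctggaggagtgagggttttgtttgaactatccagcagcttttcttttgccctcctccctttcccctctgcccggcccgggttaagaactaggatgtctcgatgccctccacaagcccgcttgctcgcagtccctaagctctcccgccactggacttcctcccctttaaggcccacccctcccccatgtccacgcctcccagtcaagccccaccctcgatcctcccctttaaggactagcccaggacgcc
The motifs were TTCNNNNGAA, the spacing STAT6 binds, TTCNNNGAA, the spacing of other STAT factors, TGANTCA for AP-1, TGCTGA for Maf, GATAA for GATA factors, and TATAAA. The Il20 promoter held the STAT6 spacing 104 bases before the start, which 5.85% of 32851 mouse promoters also held. The Il19 promoter held the other STAT spacing 225 bases before the start, found in 7.02% of promoters. The Fcmr promoter held a GATA match 43 bases before the start, printed here as its reverse complement and found in 22.6% of promoters. The Mapkapk2 promoter held none of the 6, and had the highest GC content of the 4 at 60.4%, against 46.4% for Fcmr, 52.8% for Il20, 42.0% for Il19 and a median of 52.4% over all promoters. The RefSeq start site lies 108 bases inside the GENCODE gene for Fcmr and 155 bases inside it for Il20, so these matches fall within the gene as annotated for the counts, whereas the start sites are the same for Il19 and the RefSeq one lies 17 bases outside the gene for Mapkapk2. A match describes letters only, and no match says only that these letters are not in this window.

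Depth was between 23111689 and 23454552 estimated counts in 5 samples and 3944803 in WT replicate 3. A floor of 3 counts, under which a level is treated as not detected, corresponds to 0.128 to 0.130 CPM (counts scaled to a common library total) in the 5 deeper samples and 0.761 CPM in WT replicate 3. Cul5 itself was lower in Cul5 cKO (12.6 ± 1.82 CPM against 66.2 ± 2.67 in WT, SD, n = 3; log2 fold change -2.39, SE 0.12; adjusted p = 0.000992, by the quasi-likelihood test of edgeR, Benjamini-Hochberg). Over all 12925 genes that passed the filter on low counts, 133 (1.03%) were called at an adjusted p under 0.05, 21.3% had an unadjusted p under 0.05, and the median log2 fold change was -0.01. The summed level of 8 T cell genes ranged from 1786 to 1848 CPM in WT and from 1666 to 1707 CPM without Cul5, and 1 of the 8 was called. The 8, named here after their values were seen, did not move together. Cd28 was at 88.2, 120 and 125 CPM in WT and at 46.4, 56.3 and 45.0 in Cul5 cKO. Cd3d, Cd3e, Cd3g and Lck were also lower without overlap. Cd4 (452 to 470 against 440 to 459 CPM), Cd5 and Cd2 (175 to 239 against 231 to 267 CPM) overlapped. In these bulk samples fewer expressing cells and less RNA per cell cannot be told apart.

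Of the 6 genes, 4 passed the filter, and in each of those all 3 Cul5 cKO samples lay above all 3 WT samples, as was the case for 14.0% of all genes tested. Since the choice of the cluster used this contrast, nothing is read from that count. Il19 and Il20 did not pass. The difference was largest for Il24, followed by Il10, Fcmr and Mapkapk2.

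**Figure D1:**
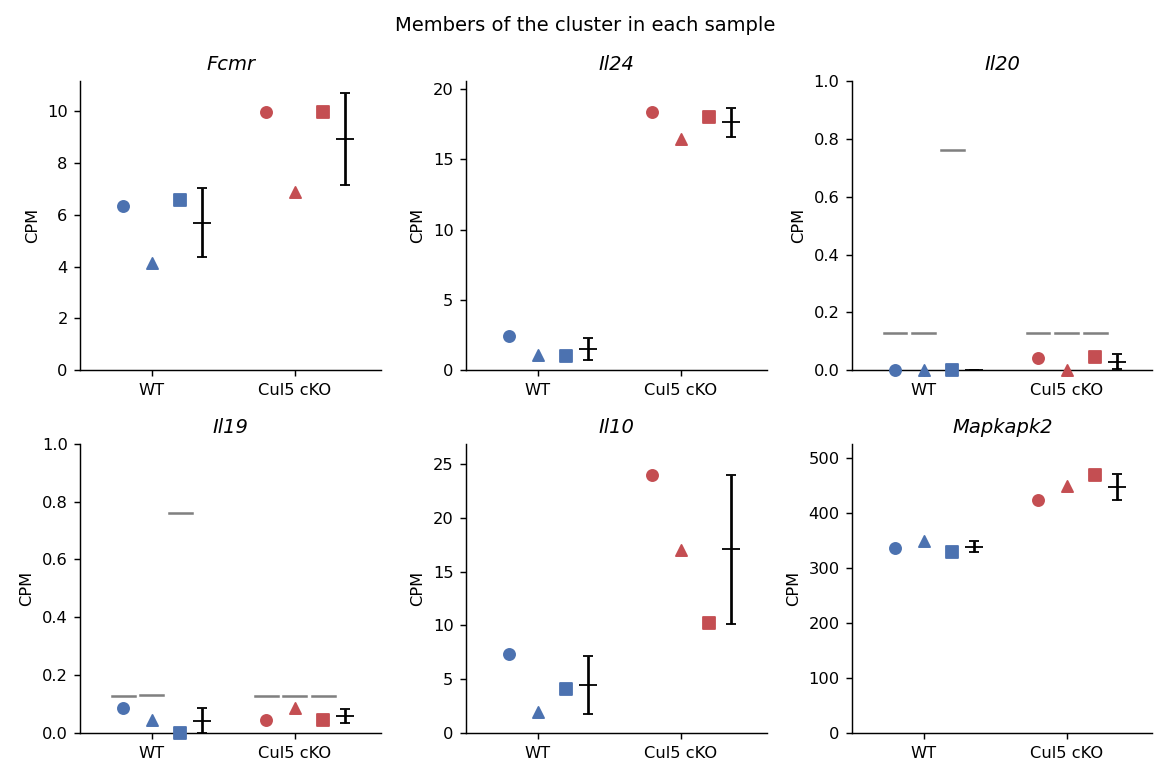
CPM (TMM-adjusted) of the 6 genes in genomic order in the 3 WT (blue) and 3 Cul5 cKO (red) samples, with circles, triangles and squares for replicates 1, 2 and 3, black bars for the mean and SD (n = 3), a linear axis from 0 in each panel and grey lines in the Il20 and Il19 panels for the floor of 3 counts in each sample. Il24 sat between 16.5 and 18.4 CPM in Cul5 cKO and between 1.01 and 2.43 CPM in WT, Il10 was more spread in both genotypes, and Il19 and Il20 stayed under the floor.

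Il24 was measured at 2.43, 1.08 and 1.01 CPM in WT replicates 1, 2 and 3, and at 18.4, 16.5 and 18.1 CPM in Cul5 cKO replicates 1, 2 and 3. The groups did not overlap, and the lowest Cul5 cKO sample was 6.77 times the highest WT sample. Mean levels were 1.51 ± 0.80 CPM in WT and 17.6 ± 1.01 in Cul5 cKO (SD, n = 3), a 10.6-fold difference (log2 fold change 3.41, SE 0.30). This was the eighth highest fold change among the genes tested. Relative spread was wide in WT (coefficient of variation 53.1%) and narrow in Cul5 cKO (5.75%). The WT values rest on few reads, since WT replicate 3 held 4 counts of Il24 (95% Poisson interval 1.09 to 10.2, which covers counting error only) and WT replicates 1 and 2 held 57 and 25. Without WT replicate 1 the log2 fold change was 4.04.

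Il10 was measured at 7.34, 1.99 and 4.05 CPM in WT replicates 1, 2 and 3, and at 24.0, 17.1 and 10.2 CPM in Cul5 cKO replicates 1, 2 and 3. The groups did not overlap, but came closer than for Il24, with the lowest Cul5 cKO sample 1.39 times the highest WT sample. Mean levels were 4.46 ± 2.70 CPM in WT and 17.1 ± 6.92 in Cul5 cKO (SD, n = 3), a 3.75-fold difference (log2 fold change 1.91, SE 0.50). Levels varied 3.69-fold among WT samples and 2.36-fold among Cul5 cKO samples. The SD within groups was 0.78 on the log2 scale, against a median of 0.18 for 1225 genes of like level, and 97.6% of those genes had a lower SD. Both genotypes had their highest Il10 level in replicate 1. Without WT replicate 1 the log2 fold change was 2.74, the highest of the fits that left out 1 sample, and without WT replicate 2 it was 1.47, the lowest.

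Il19 and Il20 lie between Il24 and Il10 and were not detectable at this depth in either genotype. Il19 had 2, 1 and 0 counts in the WT samples and 1, 2 and 1 in the Cul5 cKO samples. Il20 had 0 counts in every WT sample and 1, 0 and 1 in the Cul5 cKO samples. All of these are under the floor of 3 counts, so no fold is given. In Cul5 cKO the genes on either side thus stood at a mean of 17.6 and 17.1 CPM while both genes between them stayed under 0.1 CPM in each sample.

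Fcmr was measured at 6.32, 4.15 and 6.58 CPM in WT replicates 1, 2 and 3, and at 9.95, 6.88 and 9.96 CPM in Cul5 cKO replicates 1, 2 and 3. Replicate 2 was the lowest sample of both genotypes, and the lowest Cul5 cKO sample was only 1.05 times the highest WT sample. Mean levels were 5.68 ± 1.33 and 8.93 ± 1.77 CPM (SD, n = 3), a 1.61-fold difference (log2 fold change 0.68, SE 0.24).

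Mapkapk2 was the most abundant of the 6 and the least variable of the 4 that passed the filter. Its levels were 337, 350 and 330 CPM in WT replicates 1, 2 and 3, and 424, 450 and 470 CPM in Cul5 cKO replicates 1, 2 and 3. Mean levels were 339 ± 10.2 and 448 ± 23.1 CPM (SD, n = 3), a 1.32-fold difference (log2 fold change 0.40, SE 0.06). The groups did not overlap, and the gap between them was larger than the spread within either.

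The deposited gene-level table, holding log2 CPM normalized by the authors with TMM, lists 4 of the 6 genes, Fcmr under its older name Faim3. There the mean of Il24 was 3.32 higher in Cul5 cKO on the log2 scale, that of Il10 2.02, that of Fcmr 0.75 and that of Mapkapk2 0.40.

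Genes were ranked against each other on the TPM scale, which divides counts by transcript length. In WT the order was Mapkapk2 (177 ± 10.2 TPM), Fcmr (18.6 ± 4.75), Il10 (5.50 ± 3.29), Il24 (2.59 ± 1.05), Il19 (0.082 ± 0.071) and Il20 (0 in each sample). The ranges of Il10 and Il24 in WT overlapped, at 2.57 to 9.06 TPM and 1.83 to 3.79 TPM. Within each WT sample Il10 was the higher, at 9.06 against 3.79, 2.57 against 1.83 and 4.86 against 2.15 TPM in replicates 1, 2 and 3. The Il24 value of WT replicate 3 rests on 4 counts. In Cul5 cKO the order was Mapkapk2 (230 ± 8.24 TPM), Fcmr (30.9 ± 5.44), Il24 (25.7 ± 1.32), Il10 (21.0 ± 8.81), Il19 (0.136 ± 0.036) and Il20 (0.040 ± 0.035). Sample values of Fcmr (27.3 to 37.1 TPM) lay just above those of Il24 (24.3 to 26.9). Those of Il24 fell within the range of Il10 (12.3 to 29.9), and the order of the pair was mixed within samples. Il10 was above Il24 in Cul5 cKO replicate 1 (29.9 against 26.9 TPM). It was below Il24 in Cul5 cKO replicate 2 (21.0 against 24.3 TPM) and replicate 3 (12.3 against 26.1 TPM). Among the 22559 genes with a count in any sample, Il24 stood above 53.7% in WT and above 76.8% in Cul5 cKO, and Il10 above 58.9% and 74.1%.

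The level of a gene was chosen on, whereas the share of its counts held by each transcript was not, and was compared by a two-sided exact permutation test, which cannot go below 0.1 for 3 samples against 3. For Fcmr most counts were assigned to a pair of short noncoding transcripts at the 3′ end of the gene, Fcmr-202 (548 bases, 3 exons) and Fcmr-203 (497 bases, 2 exons), rather than to the coding transcript Fcmr-201 (1600 bases, 8 exons). Both short forms lie within the span of Fcmr-201, so the split is an estimate by kallisto. Whether it holds reads of the coding transcript was not tested. Fcmr-201 held 17.2, 27.4 and 38.7% of the counts in the WT samples and 17.1, 12.5 and 41.9% in the Cul5 cKO samples. The groups overlapped (27.8 ± 10.7% and 23.8 ± 15.8%, exact permutation p = 0.7, 0.933 adjusted over the 4 shares tested). Fcmr-202 held 43.8 ± 3.95% in WT and 37.5 ± 8.83% in Cul5 cKO (exact permutation p = 0.3, adjusted p = 0.933). Fcmr-203 held 28.5 ± 14.3% and 38.7 ± 11.8% (exact permutation p = 0.5, adjusted p = 0.933). Per length the coding transcript stood at only 1.06 to 2.40 TPM in WT and 0.835 to 3.98 TPM in Cul5 cKO by this estimate. The place of Fcmr above Il10 and Il24 in the order of levels thus rests on counts assigned to the short forms. The difference in Fcmr-201 share turned to +1.5 percentage points without WT replicate 3 and to +1.71 without Cul5 cKO replicate 2.

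**Figure D2:**
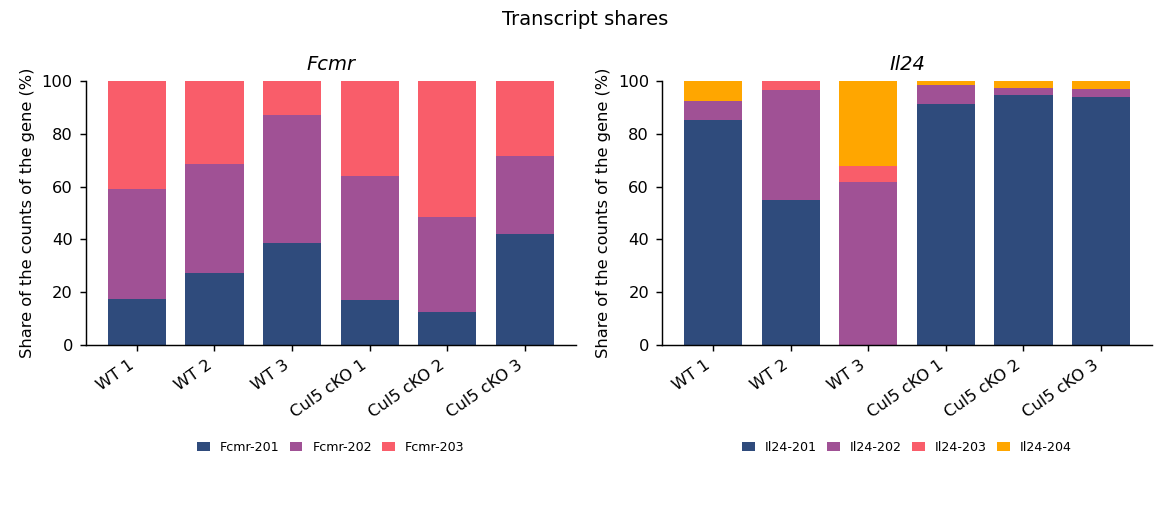
Share of the counts of Fcmr (left) and Il24 (right) held by each annotated transcript, in percent, 1 stacked bar per sample. The coding Fcmr-201 held between 12.5 and 41.9% with no order by genotype, and Il24-201 held over 90% in each Cul5 cKO sample, whereas the WT bars of Il24 rest on 57, 25 and 4 counts.

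Il24 had too few counts in WT for a test of its shares. The longest-spanning coding transcript, Il24-201, held 91.1, 94.8 and 93.9% of Il24 counts in the Cul5 cKO samples. It held 85.3% in WT replicate 1, 55.1% in WT replicate 2 and 0% in WT replicate 3, where only 4 counts were present. Mapkapk2 was almost entirely Mapkapk2-201 (99.6 ± 0.59% in WT and 99.9 ± 0.003% in Cul5 cKO, exact permutation p = 1), and Il10 has a single annotated transcript.

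Whether the difference extended past the ends of the cluster was examined in the genes within 1 Mb on either side, which were taken by position alone. Of 59 annotated genes, 29 had a count and 19 passed the filter. None was called by edgeR's quasi-likelihood test (adjusted p under 0.05), 5 (26.3%, against 21.3% of all genes) had an unadjusted p under 0.05, and DESeq2 called 4, against 5.94% of the 11660 genes to which it gave an adjusted p. The 5 were Pigr, Dyrk3 and Zp3r, higher in Cul5 cKO, and Cd55 and Ikbke, lower. Apart from Pigr, which had the lowest p, they are named after their values were seen. The median log2 fold change of the 19 was -0.07. All 5 lay within 0.5 Mb of the cluster, where 13 genes passed the filter, a share of 38.5%. Within 2 Mb 26 genes passed, and 23.1% had an unadjusted p under 0.05. None was called by edgeR in either window.

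The nearest tested gene on each side of the cluster was among the 3 with higher levels. Pigr, which encodes the receptor that carries IgA and IgM across epithelia, starts 39.0 kb before the start site of Fcmr. It was at 12.0, 10.1 and 11.6 CPM in WT and at 19.1, 16.1 and 20.7 CPM in Cul5 cKO, with no overlap (log2 fold change 0.74, SE 0.14, adjusted p = 0.0599 by edgeR's quasi-likelihood test). Dyrk3, a kinase that dissolves stress granules, starts 40.5 kb past the start site of Mapkapk2, and was at 9.78, 5.97 and 7.85 CPM in WT and at 16.2, 14.6 and 14.4 CPM in Cul5 cKO (log2 fold change 0.94, SE 0.19, adjusted p = 0.0701 by the same test). Neither passed the threshold, and each moved across it with the fit: among 19 alternatives the adjusted p of Pigr ran from 0.00337 to 0.257 and that of Dyrk3 from 0.00238 to 0.301. Leaving out WT replicate 1 brought Dyrk3 to an adjusted p of 0.0339 by edgeR.

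Beyond these, levels did not keep to the direction seen within the cluster, in examples named after their values were seen. Eif2d, a translation initiation factor next to Dyrk3, overlapped between genotypes (66.9 ± 4.31 CPM in WT and 75.7 ± 4.76 in Cul5 cKO, log2 fold change 0.17), as did Rassf5, an adaptor of integrin signalling (log2 fold change -0.04, SE 0.10). Ikbke, a kinase of the interferon response, was at 127 ± 19.9 CPM in WT and 87.0 ± 12.0 in Cul5 cKO (log2 fold change -0.54, adjusted p = 0.111 by edgeR's quasi-likelihood test). Cd55, which protects cells from complement, was at 20.9 ± 4.05 and 10.7 ± 3.76 CPM (log2 fold change -0.94, adjusted p = 0.124 by the same test). Zp3r, under the floor in WT replicate 3 only, was at 0.50 ± 0.26 and 1.27 ± 0.19 CPM (log2 fold change 1.16, adjusted p = 0.150 by the same test).

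**Figure D3:**
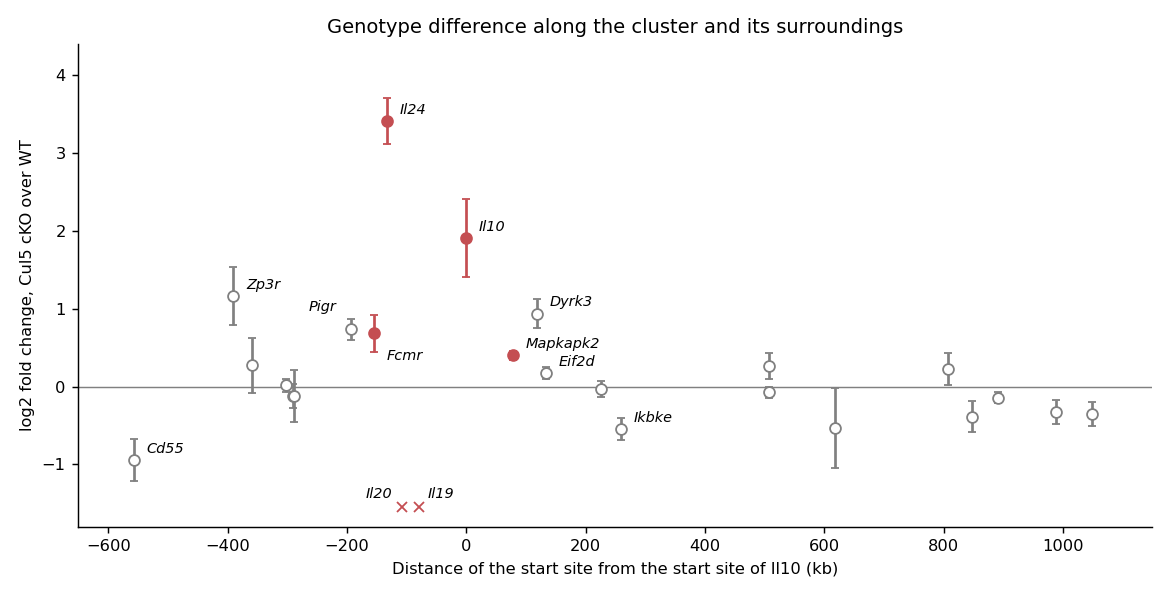
Log2 fold change (Cul5 cKO over WT, bars show SE, n = 3 per genotype) of the tested genes against the distance of their start site from that of Il10 in kb, with cluster members as red filled points, other genes as grey open points, and crosses marking the positions only of Il20 and Il19, which were not tested. Il24 at 3.41 and Il10 at 1.91 stood above every other gene in the window, with Pigr at 0.74 and Dyrk3 at 0.94 beside the ends of the cluster.

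Transcription factors known to act at Il10 in T cells were examined as the upstream side of the cluster. All 23 passed the filter, and 1 was called, Maf (4.35% of the list against 1.03% of all genes). The gene lists here and below were drawn up with earlier results of these data known. Their shares against all genes are therefore a description only. Maf, which activates Il10 in many helper T cells, was at 25.3, 34.4 and 35.4 CPM in WT and rose to 61.9, 66.5 and 69.5 CPM in Cul5 cKO (31.7 ± 5.57 against 65.9 ± 3.81 CPM, log2 fold change 1.08, SE 0.13, adjusted p = 0.0185 by edgeR's quasi-likelihood test). The lowest Cul5 cKO sample was well above the highest WT sample. The call did not hold at 3 against 2 samples in 4 of 6 fits by the same test: leaving out WT replicate 2 gave an adjusted p of 0.0771, WT replicate 3 gave 0.0816, Cul5 cKO replicate 2 gave 0.0688 and Cul5 cKO replicate 3 gave 0.104, while the log2 fold change stayed between 0.92 and 1.16.

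Of the 23 factors, 8 had an unadjusted p under 0.05 (34.8%, against 21.3% of all genes), 4 higher and 4 lower, and DESeq2 called 3, Maf, Fosl2 and Ets1, against 5.94% of all genes by that tool. Besides Maf, those with higher values were Batf, Fosl2 and Smad3, named after their values were seen. Batf and Fosl2 encode AP-1 family factors and Smad3 a transducer of TGF-β. Batf was at 29.4 ± 3.04 CPM in WT and 38.6 ± 3.13 in Cul5 cKO, Fosl2 at 19.4 ± 5.61 and 39.7 ± 12.4, and Smad3 at 42.9 ± 12.8 and 65.9 ± 14.2, with overlap for Smad3 only. Those with lower values were Ets1, Jun, Jund and Gata3. Ets1, a factor of T cell quiescence, was at 845 ± 57.7 CPM in WT and 656 ± 16.2 in Cul5 cKO (log2 fold change -0.37, adjusted p = 0.0547 by edgeR's quasi-likelihood test). Gata3, the main Th2 factor, was at 74.9 ± 3.38 and 67.0 ± 2.87 CPM (log2 fold change -0.16, adjusted p = 0.232 by the same test). The median log2 fold change of the 23 was 0.12.

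**Figure D4:**
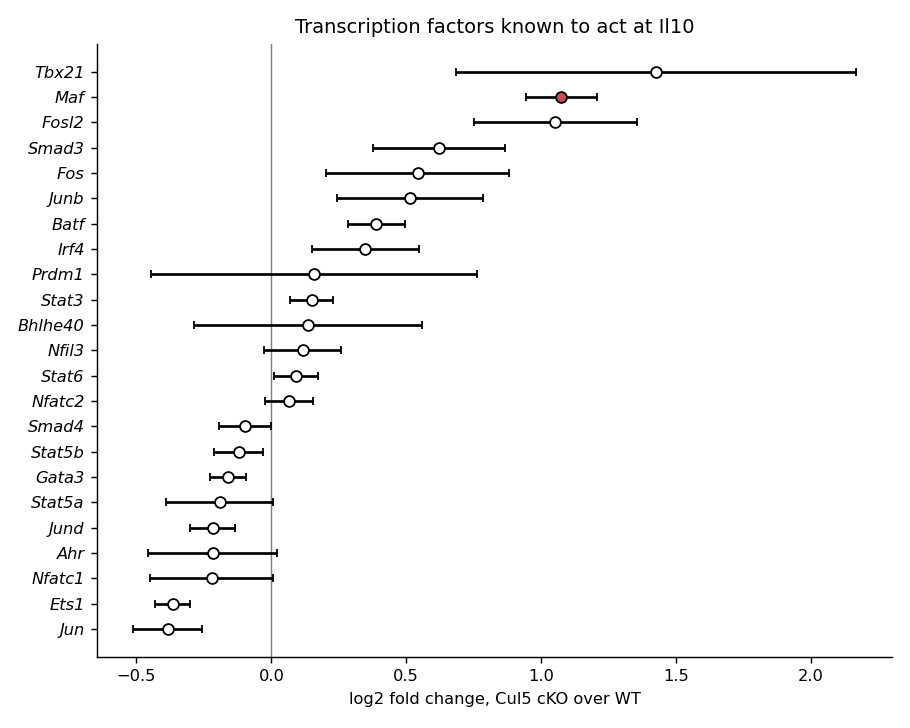
Log2 fold change (Cul5 cKO over WT, points with SE bars, n = 3 per genotype) of 23 transcription factors known to act at Il10 in T cells, ordered by value, with the 1 called gene filled red. Maf stood at 1.08 with a short error bar, Tbx21 (not called, named after its values were seen) at 1.43 with an SE of 0.74 at a mean of 1.09 CPM in WT, and Jun and Ets1 at the lower end.

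On the receptor side, of 11 other ligands and receptors of the IL-10 family only Il10ra, Il10rb and Il20rb passed the filter, none of which was called by edgeR's quasi-likelihood test or by DESeq2, and none had an unadjusted p under 0.05. Both chains of the IL-10 receptor were present in both genotypes. Il10ra, the ligand-binding chain, was at 38.8, 20.7 and 25.6 CPM in WT and at 48.6, 39.0 and 24.6 CPM in Cul5 cKO (log2 fold change 0.39, SE 0.30, adjusted p = 0.50 by edgeR's quasi-likelihood test). Il10rb, the chain shared with other receptors of the family, was at 43.1 ± 5.69 and 44.6 ± 4.38 CPM (log2 fold change 0.04, SE 0.12). The receptors of IL-24 pair Il20rb with Il20ra or with Il22ra1. Il20rb was at 4.20 ± 0.50 and 4.28 ± 0.30 CPM (log2 fold change 0.01, SE 0.19), while Il20ra and Il22ra1 were at or under the floor in all 6 samples. Il22, its copy Iltifb, Il22ra2, Ifnl2 and Ifnl3 were also at or under the floor in all samples. Ifnlr1, the receptor chain for type III interferons, did not pass the filter and was not tested, with 3, 5 and 0 counts in WT and 5, 22 and 11 in Cul5 cKO, the most in Cul5 cKO replicate 2.

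Genes known to respond to IL-10 and STAT3 were measured as the downstream side. All 12 passed the filter, none was called by edgeR's quasi-likelihood test or by DESeq2, and 1 (8.33%, against 21.3% of all genes) had an unadjusted p under 0.05. That gene was Socs3, the feedback inhibitor induced by STAT3, at 44.2, 41.4 and 46.3 CPM in WT and 53.7, 72.8 and 49.9 in Cul5 cKO (log2 fold change 0.43, SE 0.14, adjusted p = 0.162 by edgeR's quasi-likelihood test). Cul5 cKO samples lay above WT samples without overlap, and Cul5 cKO replicate 2 stood apart from the other two. Without that library, which also had the highest summed level of mast cell and basophil genes (36.0 CPM) and of myeloid genes (22.5 CPM), the log2 fold change was 0.25 (adjusted p = 0.262 by the same test), and the part of such cells in it was not tested. Of the 12, 9 had a log2 fold change above 0, and the median was 0.13. In 3 of the 12 all Cul5 cKO samples lay above all WT samples, as in 14.0% of all genes tested. Besides Socs3 these were Bcl3 (43.0 to 51.7 against 52.1 to 57.9 CPM) and Stat3 (290 to 301 against 309 to 367 CPM), named after their values were seen.

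The p38 pathway around Mapkapk2 was described in the same way. Of 20 genes, 18 passed the filter and 1 was called (5.56% against 1.03% of all genes, again a description only). Map2k3, a kinase that activates p38, was at 131, 145 and 131 CPM in WT and rose to 186, 209 and 204 CPM in Cul5 cKO (log2 fold change 0.56, SE 0.08, adjusted p = 0.0245 by edgeR's quasi-likelihood test). The call was lost in 4 of 6 fits that left out 1 sample, by the same test: leaving out WT replicate 2 gave an adjusted p of 0.0789, WT replicate 3 gave 0.134, Cul5 cKO replicate 2 gave 0.0916 and Cul5 cKO replicate 3 gave 0.141. In this list 5 genes (27.8%, against 21.3% of all genes) had an unadjusted p under 0.05, which apart from Map2k3 are named after their values were seen. Hnrnpa0, an RNA-binding substrate of MK2, and Rps6ka4, a nuclear kinase downstream of p38, were higher by 0.14 and 0.23 on the log2 scale. Map2k6, the other main activator of p38, was at 10.1 ± 2.15 CPM in WT and 6.08 ± 1.47 in Cul5 cKO, and Dusp1, a phosphatase that inactivates p38, at 9.28 ± 0.97 and 6.66 ± 0.49 CPM. Among the rest, likewise named after their values were seen, Mapk14, which encodes p38 alpha, was at 122 ± 7.71 and 116 ± 13.6 CPM, and Mapkapk3, the closest relative of Mapkapk2, at 254 ± 25.2 and 292 ± 23.9 CPM.

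Genes most like each member were ranked by the root mean square difference between log2 CPM profiles over the 6 samples, each centred on its own mean, among 11614 genes with a mean of at least 1 CPM. Because these profiles include the genotype difference that chose the cluster, the ranking is a description. Closest to Il10 were Nhs, Procr, Nrp2, Gja5 and Basp1, at differences of 0.35 to 0.42. Procr encodes the receptor for protein C, Nrp2 a co-receptor for semaphorins and VEGF, and Gja5 a connexin. Nrp2 was the most abundant of the 5, at 22.8 ± 11.0 CPM in WT and 78.5 ± 16.6 in Cul5 cKO.

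Closest to Il24 were Foxf2, Gm33707, C1s1, Gal and Tgm2, at differences of 0.41 to 0.65. Foxf2, a forkhead factor, was at 1.06 ± 0.56 CPM in WT and 7.94 ± 0.99 in Cul5 cKO, and Tgm2, transglutaminase 2, at 13.0 ± 8.28 and 77.2 ± 40.0 CPM. Il10 and Il24 were not each other's closest gene: their profiles differed by 0.91, and among the 12924 other genes tested, with no minimum level, Il10 ranked 16 for Il24 while Il24 ranked 273 for Il10. Closest to Mapkapk2 were Ppp1r14b, Rrbp1, Tomm5, Nr2c2ap and Sh3bp2, all at 0.03. Closest to Fcmr were Ppp1r3b, 5730507C01Rik, Actn2, Fbxl21 and Pigr, at 0.09 to 0.16, the last of which is its neighbour on the chromosome. On the gene-level table of the authors 3 of the 5 genes named for Il10, 3 for Il24, 1 for Mapkapk2 and none for Fcmr were again among the closest 5. Gm33707 and Gal for Il24 and Ppp1r3b for Fcmr were not ranked there, so they could not recur.

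Markers of other cell types stood apart in single libraries. The summed level of 10 B cell genes was 23.1 to 29.1 CPM in WT and 15.5, 18.6 and 88.7 in Cul5 cKO replicates 1, 2 and 3. Fcmr, itself expressed by B cells, was as high in Cul5 cKO replicate 1 (9.95 CPM) as in Cul5 cKO replicate 3 (9.96 CPM), while the share of the coding Fcmr-201 was highest in Cul5 cKO replicate 3. Without that library the log2 fold change was 0.60 for Fcmr, 3.41 for Il24, 2.18 for Il10 and 0.37 for Mapkapk2. The summed level of 5 mast cell and basophil genes was 0.598 to 2.53 CPM in WT and 0.738, 36.0 and 2.36 in Cul5 cKO replicates 1, 2 and 3, and that of 10 myeloid genes 6.23 to 11.1 CPM in WT and 5.43, 22.5 and 6.09 in Cul5 cKO. Cd14, Fcgr1 and Mrc1 of the myeloid list were at or under the floor in every sample. The rest, named after their values were seen, did not move together. Ly6c2 (7.76 CPM), Lyz2 (2.8) and Csf1r (2.63) stood out in Cul5 cKO replicate 2, with at most 0.400, 0.260 and 0.173 CPM elsewhere. Adgre1 (2.98 CPM) and Cd68 (3.42) were highest there by less, next to 2.09 and 3.29 CPM. Itgam and Cd163 were highest in WT replicate 2 (5.93 and 0.346 CPM). Cul5 cKO replicate 2 had the lowest Il24 level of the Cul5 cKO samples and the middle Il10 level, and without it the log2 fold changes were 3.47 for Il24, 1.92 for Il10, 0.84 for Fcmr and 0.41 for Mapkapk2. The summed level of 2 CD8 T cell genes was 5.76 to 6.53 CPM in WT and 4.30, 6.35 and 11.7 in Cul5 cKO replicates 1, 2 and 3. The sum was thus highest in the library that was also highest for the B cell genes, but only 1 of the 2 genes stood apart there. Cd8a was at 6.27 CPM in Cul5 cKO replicate 3 and at 0.565 to 1.71 CPM in the other samples. Cd8b1, at 5.38 CPM in Cul5 cKO replicate 3, was within its WT range of 4.10 to 5.45 CPM. NK cell genes (0.174 to 0.759 CPM summed) and epithelial genes (0.695 to 2.12 CPM) were low in all samples, with Ncr1, Krt5 and Krt14 at or under the floor throughout. The part of these cells in the levels of Il10 and Fcmr was not tested beyond these values.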

How the data were processed

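RNA was poly-A selected and sequenced in single-end reads on a BGIseq500, with strand not given in the sources used here. Estimated counts and TPM per transcript were deposited by the authors for each sample, made with kallisto 0.46.2 on Ensembl transcripts of GRCm38. The authors also deposited a table of log2 CPM per gene, normalized by TMM with edgeR 3.34.0. Its columns of fold changes and p-values hold the comparison made by the authors and were not used.

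GENCODE vM21 gave the gene of each transcript and matched 116640 of 119414 (97.7%); those left out held 0.958% to 1.04% of a sample's counts. Gene sums of estimated counts were rounded to whole numbers. All genes were fitted in edgeR 4.0.16 (R 4.3.3) with the default filter, TMM and the quasi-likelihood test on genotype, and Benjamini-Hochberg adjustment over 12925 genes. CPM use TMM-adjusted library sizes. Promoters and older symbols came from RefSeq. Intervals are exact Poisson at 95%. Alternatives used DESeq2 1.42.0 and limma 3.58.1. Scripts were tested on simulated data.

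Named genes are the 6 members, the 5 genes most like each tested member in pattern, list and neighbouring genes that were called, the gene of lowest p in each list, the receptors and Cul5. Further genes are named as chosen after their values were seen. Members and lists were chosen with earlier results of these data known. Some genes stand in 2 lists: Zfp36 in the response and p38 lists, and Nfil3 and Stat3 in the regulator and response lists.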

Additional observations from a re-analysis of the deposited data

How the results depend on the processing

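Across 19 alternatives (18 for Il24) the log2 fold change stayed above 0 for the 4 tested members: 1.47 to 2.74 for Il10, 2.93 to 4.04 for Il24, 0.36 to 0.44 for Mapkapk2 and 0.48 to 0.84 for Fcmr. Leaving out 1 sample gave 1.47 to 2.74 for Il10 and 3.11 to 4.04 for Il24, which was 2.93 on log2(TPM + 1) and 4.01 with replicates 2 and 3 alone. Leaving out 1 sample moved the Fcmr-201 share difference between -13.0 and 1.71 points and the Mapkapk2-201 one between -0.05 and 0.48; both turned without WT replicate 3 (1.5 and -0.05). The 133 calls over all genes became 693 with DESeq2, 228 with no filter, 61 on counts scaled from TPM, 42 with limma on the authors' table, 27 on log2(TPM + 1), 30 on log2(TPM + 0.1), 2753 at an unadjusted p under 0.05, 1688 with replicate 1 against replicates 2 and 3 as a term, 1153 with replicates 2 and 3 alone, and 2 to 316 without 1 sample. The lowest, 2, came without WT replicate 2 or WT replicate 3. Regulators called went from 1 to 3 with DESeq2, 2 by library size alone or with at least 10 counts in every sample, 0 on both log2 TPM scales, 9 with the replicate 1 term, 7 with replicates 2 and 3 alone, 8 unadjusted and 0 to 2 without 1 sample. Response genes went from 0 to 1 with the replicate 1 term and unadjusted. The p38 list went from 1 to 0 on scaled counts, the authors' table and both log2 TPM scales, 5 with the replicate 1 term, 3 with replicates 2 and 3 alone, 5 unadjusted and 0 to 1 without 1 sample. Neighbouring genes went from 0 to 4 with DESeq2, 2 with no filter, 5 with the replicate 1 term, 5 with replicates 2 and 3 alone, 5 unadjusted and 0 to 2 without 1 sample. The family list stayed at 0 in all 19. The causes were not tested.

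With a replicate block 848 genes were called, with 7 regulators, 3 genes of the p38 list and 3 neighbouring genes. Same-numbered samples correlated at 0.370, 0.206 and 0.025 in their deviations from the group means. Samples of different number correlated at -0.333 to 0.201. WT replicates 1 and 2 each correlated best with the Cul5 cKO sample of their own number, whereas WT replicate 3 correlated better with Cul5 cKO replicate 2 (0.091). The main fit has no block because the methods name no pairing, and structure shared between same-numbered samples was not tested. WT replicate 3, at 3944803 counts, limits what can be said of Il24 in WT, and Il19 and Il20 were under the floor of 3 counts in every sample.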
